A study of Mus musculus with 12 samples.

Results

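The tumour necrosis factor (TNF) superfamily was followed in the terminal ileum, the last stretch of the small intestine, of 12 mice. Members were taken by name from the deposited gene table: every gene whose symbol begins with Tnfsf or Tnfrsf and a digit, with Tnf, Lta, Fas and Ltbr added and Tnfrsf13b, Tnfrsf13c and Tnfrsf17 left out. The rule found 32 members, 13 ligands and 19 receptors, among 23284 genes, and all 32 had reads. Of these, 30 passed the filter on low counts. The other two, Tnfsf4 with 47 reads over the 12 mice and Tnfsf18 with 40, were too sparse to test, which left 11 ligands and 19 receptors.

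An RNA library was made from the terminal ileum of each mouse, and the 12 libraries form 4 groups of 3: wild type C57BL/6, Rag1-/-, Tcra-/- co-housed and Tcra-/- separately housed. Rag1-/- mice lack a recombinase needed for antigen receptors and so form no mature B or T cells. Tcra-/- mice lack the alpha chain of the T cell receptor which leaves them without conventional alpha beta T cells, while B cells and gamma delta T cells can still form. A label on the co-housed libraries says that male wild type mice matched for age shared a cage with as many knockout mice for 4 to 8 weeks. The design text names 2 comparisons, Rag1-/- against wild type and co-housed against separately housed Tcra-/-, which ask what changes in the gut with the loss of lymphocytes and with the cage mates. All mice came from 1 supplier and were kept free of specific pathogens. Whether those cage mates are the wild type group analysed here, ages, the sex of the other groups and the number of cages per group are not given, so housing and cage cannot be told apart, and the p-values measure the spread among mice.

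Ligands of this superfamily are mostly membrane proteins that act as trimers, and some are shed from the cell. Their receptors either carry a death domain, through which they can start apoptosis or necroptosis, or recruit TRAF adaptors that activate NF-kB. In the gut they carry signals among T cells, B cells, innate lymphoid cells, myeloid cells, stroma and epithelium, for example in the building of lymphoid follicles, in IgA production and in inflammation.

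Promoters are shown for 3 members whose patterns the results turn on: Tnf and Tnfrsf9, which were higher in co-housed than in separately housed Tcra-/- mice, and Tnfsf15, which went the other way. They are the 250 bases before the start of the gene in RefSeq for build GRCm38.p6, printed 5′ to 3′ on the strand of the gene. The regions are chr17:35202008-35202257 on the minus strand for Tnf, chr4:150927749-150927998 on the plus strand for Tnfrsf9 and chr4:63745060-63745309 on the minus strand for Tnfsf15. Capitals mark 4 searched motifs.
Tnf: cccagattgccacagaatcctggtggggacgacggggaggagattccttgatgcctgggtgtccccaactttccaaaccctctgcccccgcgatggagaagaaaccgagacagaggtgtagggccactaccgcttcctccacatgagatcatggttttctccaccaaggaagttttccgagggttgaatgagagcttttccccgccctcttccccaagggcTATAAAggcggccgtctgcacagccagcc
Tnfrsf9: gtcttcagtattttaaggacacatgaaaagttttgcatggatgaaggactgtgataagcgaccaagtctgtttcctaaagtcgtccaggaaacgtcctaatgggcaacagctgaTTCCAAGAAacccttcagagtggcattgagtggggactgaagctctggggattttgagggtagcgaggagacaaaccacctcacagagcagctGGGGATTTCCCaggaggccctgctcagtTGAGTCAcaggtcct
Tnfsf15: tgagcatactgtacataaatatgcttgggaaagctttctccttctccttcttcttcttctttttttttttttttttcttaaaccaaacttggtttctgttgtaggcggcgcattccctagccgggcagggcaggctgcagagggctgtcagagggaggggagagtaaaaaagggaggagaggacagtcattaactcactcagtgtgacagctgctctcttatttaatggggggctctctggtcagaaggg
The capitals in the window of Tnf are a TATA box, TATAAA. In the window of Tnfrsf9 they are, in order, a STAT motif (TTCNNNGAA), a Rel motif of NF-kB and an AP-1 motif (TGACTCA or TGAGTCA), and in that of Tnfsf15 none of the 4 was found. Both strands were searched. The run of capitals for the Rel motif is 2 matches that overlap, at -43 to -34 and -42 to -33 from the start of the gene, and matches to different motifs do not overlap in these windows. RefSeq windows were matched by symbol for 25 members, which have 29 windows. The Rel motif was in 2 of these 29 windows, those of Tnfrsf8 and Tnfrsf9, and in 3.9% of all 32851 promoters of the same length. The STAT motif was in 7 windows (7.02% of all promoters), the TATA box in 5 (12.4%) and the AP-1 motif in 6 (4.46%). A match describes the letters of a window and says nothing about binding.

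Members took 0.0505 to 0.0584% of the reads of each library, and libraries held 37061276 to 50581616 counts. Values below are CPM (counts scaled to 1000000 reads) on the library size normalised by the trimmed mean of M-values (TMM), and a gene was called when its edgeR quasi-likelihood p, adjusted over all 15866 genes tested (Benjamini-Hochberg), was under 0.01. Markers of terminal ileum, among them the bile acid carrier Fabp6, summed to 3881 to 5412 CPM, and those of epithelium to 17554 to 19894 CPM, so that both were high in every mouse. Rag1 itself had 75, 69 and 92 reads in the mice labelled Rag1-/- and none in the other 9. Which part of the gene was deleted is not given, so these reads check nothing. B cell markers summed to 3.12 to 4.56 CPM in Rag1-/- mice and to 55.6 to 217 CPM elsewhere. Tcra reads were not analysed here. Single mice are called by their labels, with the prefix WTB6x, RAG1x, TCRaCox or TCRaSepx.

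**Figure D1:**
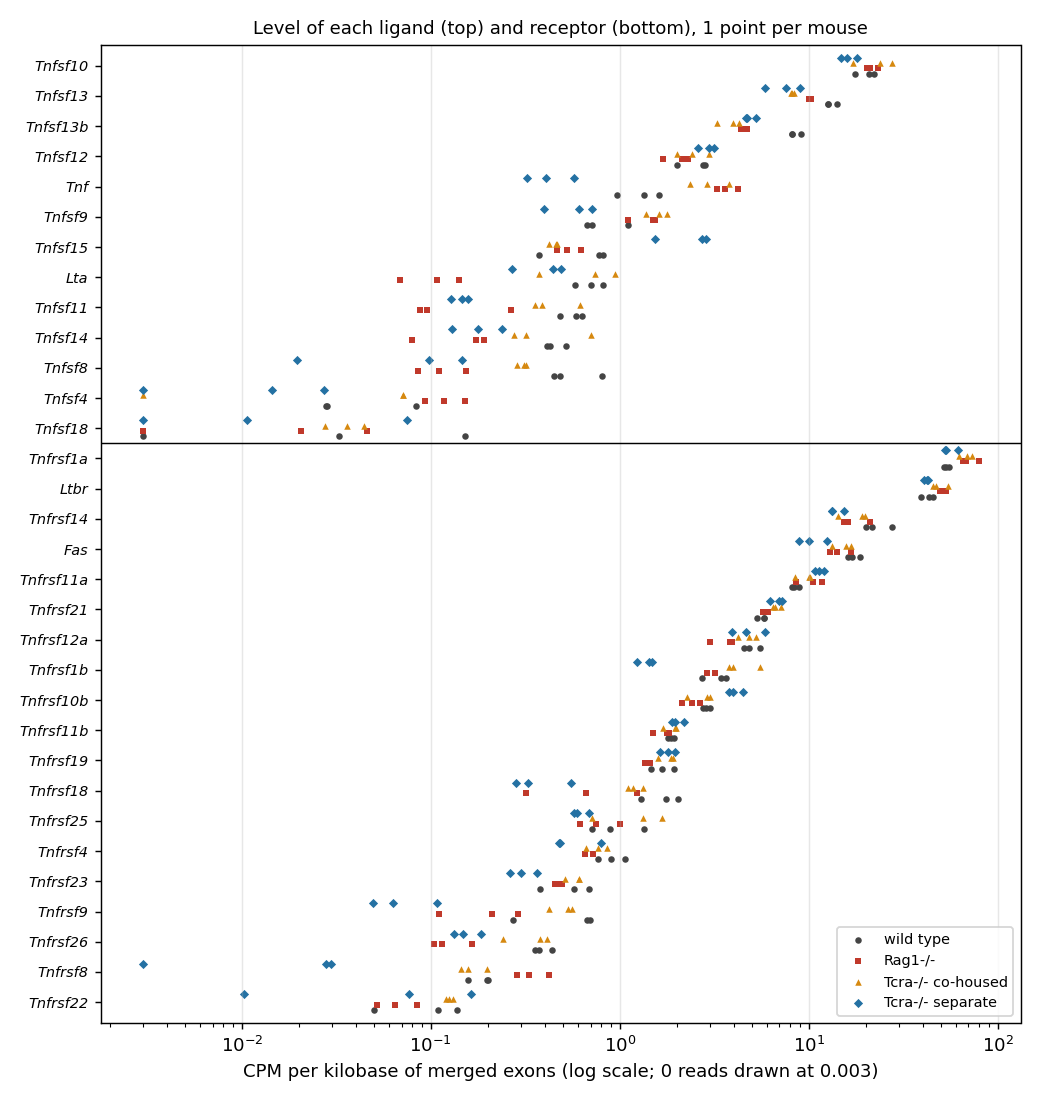
Level of each member in CPM per kilobase of merged exons (log axis), 1 point per mouse, coloured by group, with ligands above receptors and mice without reads drawn at the left edge. Tnfrsf1a (mean 62.0) and Ltbr (46.4) lead the receptors and Tnfsf10 (20.2) leads the ligands.

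Per kilobase of merged exons, which allows levels of different genes to be compared, receptors outweighed ligands in every mouse. Ligands made up 16.3 to 23.5% of the summed level of all members. Tnfrsf1a, the TNF receptor with a death domain, had the highest mean level over the 12 mice at 62.0 CPM per kilobase, followed by Ltbr, the lymphotoxin beta receptor, at 46.4. Tnfsf10, which encodes the death ligand TRAIL, came next at 20.2 and alone held 37.9 to 55.1% of the ligand level per mouse. Behind it stood Tnfrsf14 (HVEM) at 18.1, Fas at 14.4, Tnfrsf11a (RANK) at 9.94 and the ligand Tnfsf13 (APRIL) at 9.74. Tnf itself averaged 2.11 CPM per kilobase, and Tnfsf18, the ligand of GITR, was lowest at 0.037. The plot of levels per kilobase thus spans more than 3 orders of magnitude between members of 1 family.

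Among the ligands, Tnf was highest in Rag1-/- and co-housed Tcra-/- mice. Its CPM was 2.18, 1.56 and 2.62 in wild type, 5.27, 5.83 and 6.81 in Rag1-/-, 4.66, 6.13 and 3.81 in co-housed and 0.658, 0.932 and 0.525 in separately housed Tcra-/- mice. Every Rag1-/- and every co-housed mouse was above every wild type mouse, and every separately housed mouse was below all others. Tnf rose 2.81-fold in Rag1-/- against wild type (log2 1.49, SE 0.23, adjusted p = 0.000111) and 6.91-fold in co-housed against separately housed Tcra-/- (log2 2.79, SE 0.26, adjusted p = 3.24e-07). Against wild type it fell by 1.59 on the log2 scale in separately housed Tcra-/- mice (SE 0.27, adjusted p = 0.000454) and rose by 1.20 in co-housed ones (SE 0.23, adjusted p = 0.000994). It was the single member called in all 4 of these comparisons, and leaving out any 1 mouse kept each of the calls. The 2 fold changes of the design text differed by -1.30 with SE 0.35, which was not called (adjusted p = 0.013), but DESeq2 called it (0.00313), as did leaving out TCRaCox3157, TCRaSepxT3 or WTB6x3160 (0.00594 to 0.00839).

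Lta, which encodes lymphotoxin alpha and lies next to Tnf on chromosome 17 (mm9 35340110 to 35342296, minus strand, against 35336336 to 35338941 for Tnf), did not share its pattern. Its CPM was 1.12, 0.974 and 0.805 in wild type, 0.196, 0.0948 and 0.149 in Rag1-/-, 1.03, 1.30 and 0.520 in co-housed and 0.614, 0.373 and 0.678 in separately housed Tcra-/- mice. The Rag1-/- mice were below all 9 others. Lta fell by 2.70 on the log2 scale in Rag1-/- against wild type (SE 0.44, adjusted p = 0.000174), while the 2 Tcra-/- groups overlapped (log2 difference 0.77, SE 0.37, adjusted p = 0.091). The Rag1-/- and the housing fold changes differed by -3.47 (SE 0.57, adjusted p = 0.000389). So of these neighbours, one was higher and one lower in Rag1-/- than in wild type ileum.

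**Figure D2:**
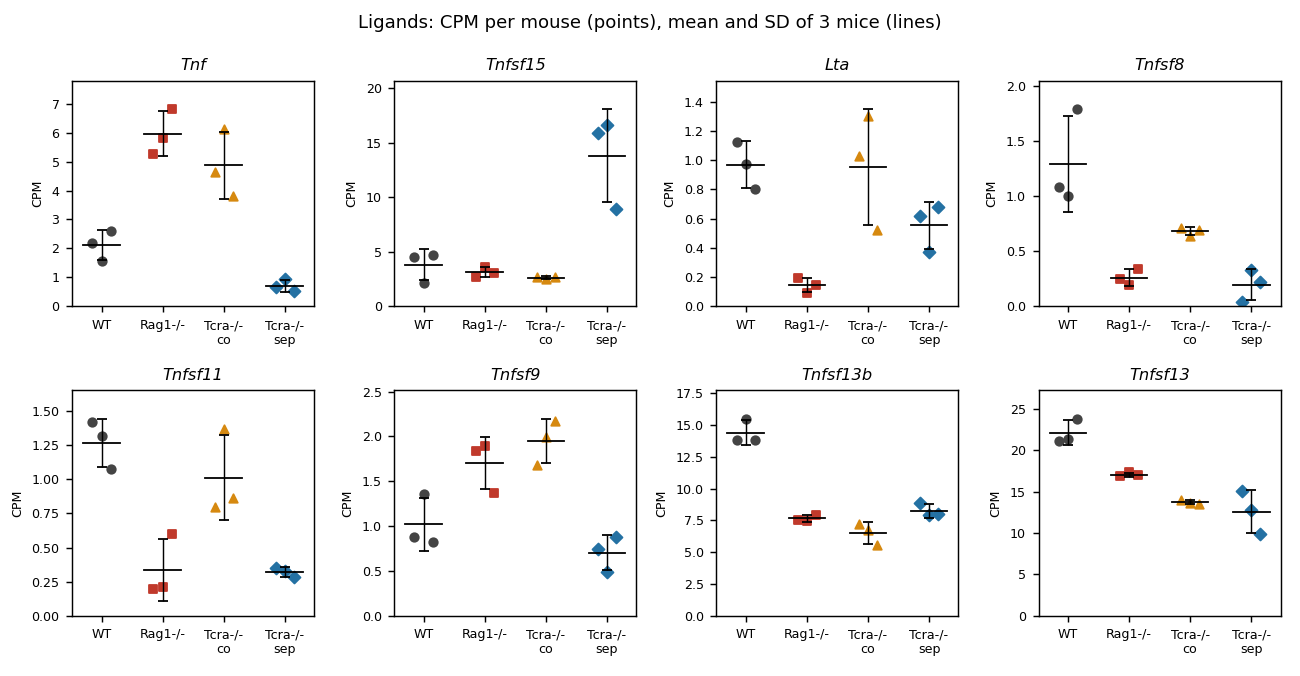
CPM of 8 ligands per mouse (points), with the mean and SD of the 3 mice of each group as bars. Tnf is high in Rag1-/- and co-housed Tcra-/- mice, Tnfsf15 stands out in separately housed Tcra-/- mice, and Lta and Tnfsf8 are low in Rag1-/- mice.

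Tnfsf15 encodes TL1A, a costimulator of T cells and innate lymphoid cells that is made by myeloid and endothelial cells. It had 15.9, 16.6 and 8.90 CPM in separately housed Tcra-/- mice, and 2.71, 2.47 and 2.67 in co-housed, 4.54, 2.18 and 4.74 in wild type and 2.72, 3.63 and 3.07 in Rag1-/- mice. All 3 separately housed mice were above the other 9, although TCRaSepxT4 was well below its group mates. Tnfsf15 was 5.27-fold lower in co-housed than in separately housed mice (log2 -2.40, SE 0.28, adjusted p = 9.53e-06) and higher in separately housed Tcra-/- than in wild type (log2 1.85, SE 0.27, adjusted p = 0.000256). Rag1-/- and wild type overlapped (log2 -0.28, SE 0.28, adjusted p = 0.5). Tnfsf15 was the single ligand called lower with co-housing, and the single member whose difference between the 2 fold changes of the design text was called as positive (2.11, SE 0.40, adjusted p = 0.00179). Its receptor Tnfrsf25 (DR3), with 1.10, 0.955 and 0.919 CPM in separately housed and 2.68, 2.13 and 1.14 in co-housed mice, was not called in the housing comparison (log2 0.99, SE 0.32, adjusted p = 0.017; called with DESeq2 at 0.00998 and without TCRaCox3157 at 0.00189).

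The ligands Tnfsf8 and Tnfsf11 were low in both Rag1-/- and separately housed Tcra-/- mice. Tnfsf8, the CD30 ligand, had 1.08, 0.997 and 1.79 CPM in wild type, 0.245, 0.190 and 0.341 in Rag1-/-, 0.714, 0.640 and 0.693 in co-housed and 0.0439, 0.326 and 0.219 in separately housed Tcra-/- mice. All wild type and co-housed mice were above all Rag1-/- and separately housed mice. Tnfsf8 fell by 2.29 on the log2 scale in Rag1-/- against wild type (SE 0.44, adjusted p = 0.000778) and rose by 1.79 with co-housing (SE 0.48, adjusted p = 0.00508). The housing call was lost without any 1 of the mice except TCRaSepxT3 (adjusted p 0.0101 to 0.0182), and with only the 6 libraries compared (0.0115). Against wild type it fell by 2.71 in separately housed mice (SE 0.46, adjusted p = 0.00045), and in co-housed mice it was at -0.92 (SE 0.40, adjusted p = 0.097).

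Tnfsf11 encodes RANKL, which guides M cell formation over lymphoid follicles and, from innate lymphoid cells, lymph node formation. Its CPM was 1.42, 1.31 and 1.07 in wild type, 0.196, 0.213 and 0.598 in Rag1-/-, 0.800, 1.37 and 0.866 in co-housed and 0.351, 0.326 and 0.284 in separately housed Tcra-/- mice. The Rag1-/- and separately housed mice were again all below the wild type and co-housed ones, with RAG1x3168 highest of the low mice. Tnfsf11 fell by 1.88 in Rag1-/- (SE 0.38, adjusted p = 0.00132, log2 -2.61 without RAG1x3168) and rose by 1.66 with co-housing (SE 0.39, adjusted p = 0.00222). The housing call was lost without TCRaCox3156 (0.0153) or TCRaSepxT4 (0.0116). In separately housed mice it fell by 1.97 against wild type (SE 0.39, adjusted p = 0.00152, and 0.0105 without TCRaSepxT4).

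Tnfsf14, or LIGHT, which binds HVEM and the lymphotoxin beta receptor, had 0.765, 0.793 and 0.961 CPM in wild type and 0.147, 0.355 and 0.320 in Rag1-/- mice, which did not overlap. In co-housed mice it had 0.514, 1.30 and 0.594 and in separately housed mice 0.241, 0.443 and 0.328 CPM, with TCRaCox3156 highest of all 12 mice. It fell by 1.60 in Rag1-/- (SE 0.43, adjusted p = 0.00908), a call that was lost without any 1 of the 6 mice (0.0156 to 0.0461). The housing difference of 1.27 was not called (SE 0.42, adjusted p = 0.019), nor was that between separately housed and wild type mice (-1.31, SE 0.42, adjusted p = 0.03). Tnfsf9, the 4-1BB ligand, was higher in co-housed (1.69, 1.99 and 2.18 CPM) than in separately housed mice (0.746, 0.489 and 0.875 CPM). It rose by 1.47 with co-housing (SE 0.28, adjusted p = 0.000358). In Rag1-/- (1.84, 1.90 and 1.37 CPM) against wild type (0.877, 1.36 and 0.827 CPM) its difference of 0.73 was not called (SE 0.27, adjusted p = 0.049).

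The ligands that support B and plasma cells were highest in wild type ileum. Tnfsf13b, which encodes the B cell survival factor BAFF, had 13.8, 15.5 and 13.8 CPM in wild type, 7.54, 7.46 and 7.96 in Rag1-/-, 7.23, 6.72 and 5.55 in co-housed and 8.89, 7.90 and 8.01 in separately housed Tcra-/- mice. The 3 wild type mice were above all 9 knockout mice. Tnfsf13b fell by 0.91 in Rag1-/- (SE 0.12, adjusted p = 2.11e-05), by 0.80 in separately housed (SE 0.12, adjusted p = 0.000135) and by 1.15 in co-housed Tcra-/- mice (SE 0.12, adjusted p = 3.82e-06), each against the same wild type mice. Between the housing groups the difference of -0.35 was not called (SE 0.12, adjusted p = 0.024). Tnfsf13, or APRIL, a ligand that supports plasma cells, had 21.1, 21.3 and 23.8 CPM in wild type, 16.9, 17.3 and 16.9 in Rag1-/-, 14.0, 13.7 and 13.5 in co-housed and 15.03, 12.8 and 9.91 in separately housed Tcra-/- mice. It fell by 0.81 in separately housed (SE 0.12, adjusted p = 0.000137) and by 0.69 in co-housed Tcra-/- mice (SE 0.12, adjusted p = 0.000433). Its -0.37 in Rag1-/- mice, which did not overlap wild type, was not called (SE 0.12, adjusted p = 0.023). It was called there with only the 6 libraries compared (0.00743) and with library size alone (0.00252). Tnfsf13 shares 1255 exonic bases on its strand with the readthrough gene BC096441, and Tnfsf12 shares 977. Reads in shared bases could be assigned to either gene or to neither. The levels of Tnfsf12 and Tnfsf13, and the rank per kilobase of Tnfsf13 given above, are therefore uncertain.

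The receptors of these ligands lie outside the naming rule and averaged less in each knockout group than in wild type. Tnfrsf13c, the BAFF receptor, averaged 8.03 ± 0.581 CPM (SD, n = 3) in wild type, 0.0711 ± 0.0664 in Rag1-/-, 5.23 ± 1.05 in co-housed and 3.49 ± 0.897 in separately housed Tcra-/- mice. All 3 of Tnfrsf13b, Tnfrsf13c and Tnfrsf17 were called lower in Rag1-/- than in wild type mice, and Tnfrsf17, the receptor of plasma cells, was called higher with co-housing (log2 2.42, SE 0.55, adjusted p = 0.00176).

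The other ligands were not called in any comparison. Tnfsf10 had 86.8 to 109 CPM in wild type, 101 to 115 in Rag1-/-, 85.1 to 137 in co-housed and 73.7 to 89.0 in separately housed mice, which overlapped. In the housing comparison it was 0.49 higher (SE 0.15, adjusted p = 0.014), and DESeq2 (0.00265) or leaving out TCRaCox3157 (9.21e-05) called it. Tnfsf12, or TWEAK, had 2.88 to 5.35 CPM over all mice. The OX40 ligand Tnfsf4 had at most 0.245 CPM and the GITR ligand Tnfsf18 at most 0.313 CPM in a mouse, and neither was tested. Tnfsf4 had 0.149 to 0.245 CPM in Rag1-/- and 0.0447 to 0.135 in wild type mice, which did not overlap. These values rest on 10, 8 and 7 against 6, 2 and 2 reads, too few to be read as a difference.

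Tnfrsf1a and Ltbr, the most abundant receptors, differed little between groups. Tnfrsf1a had 119, 115 and 112 CPM in wild type, 141, 171 and 146 in Rag1-/-, 148, 134 and 158 in co-housed and 115, 113 and 133 in separately housed Tcra-/- mice. The Rag1-/- and the co-housed mice were all above the wild type mice. Tnfrsf1a rose by 0.40 in Rag1-/- (SE 0.09, adjusted p = 0.00184) and by 0.35 in co-housed Tcra-/- against wild type (SE 0.09, adjusted p = 0.00608). The first call was lost without RAG1x3164 (0.0137) and with library size alone as the scale (0.025), and the second with library size alone (0.0392) and without TCRaCox3155, TCRaCox3157 or any 1 wild type mouse (0.0144 to 0.0262). Ltbr, with 82.2 to 95.1 CPM in wild type and 103 to 112 in Rag1-/- mice, did not overlap there but was not called (log2 0.28, SE 0.08, adjusted p = 0.010), while DESeq2 size factors in the same test (0.00678) and leaving out WTB6x3160 (0.00889) called it.

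Tnfrsf1b, the TNF receptor of leukocytes that lacks a death domain, was lowest in separately housed Tcra-/- mice. Its CPM was 18.7, 27.1 and 19.6 in co-housed and 7.04, 7.24 and 6.06 in separately housed Tcra-/- mice, against 13.4, 18.0 and 16.8 in wild type and 14.3, 15.8 and 14.2 in Rag1-/- mice. The 3 separately housed mice were below all 9 others, and TCRaCox3156 was the highest. Tnfrsf1b rose 3.22-fold with co-housing (log2 1.69, SE 0.15, adjusted p = 1.65e-07) and fell by 1.24 in separately housed mice against wild type (SE 0.15, adjusted p = 1.94e-05). Co-housed mice did not overlap wild type, but their difference of 0.44 was not called (SE 0.14, adjusted p = 0.026). Rag1-/- and wild type overlapped (log2 -0.12, SE 0.14, adjusted p = 0.56), and the 2 fold changes of the design text differed by -1.81 (SE 0.20, adjusted p = 9.35e-06).

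**Figure D3:**
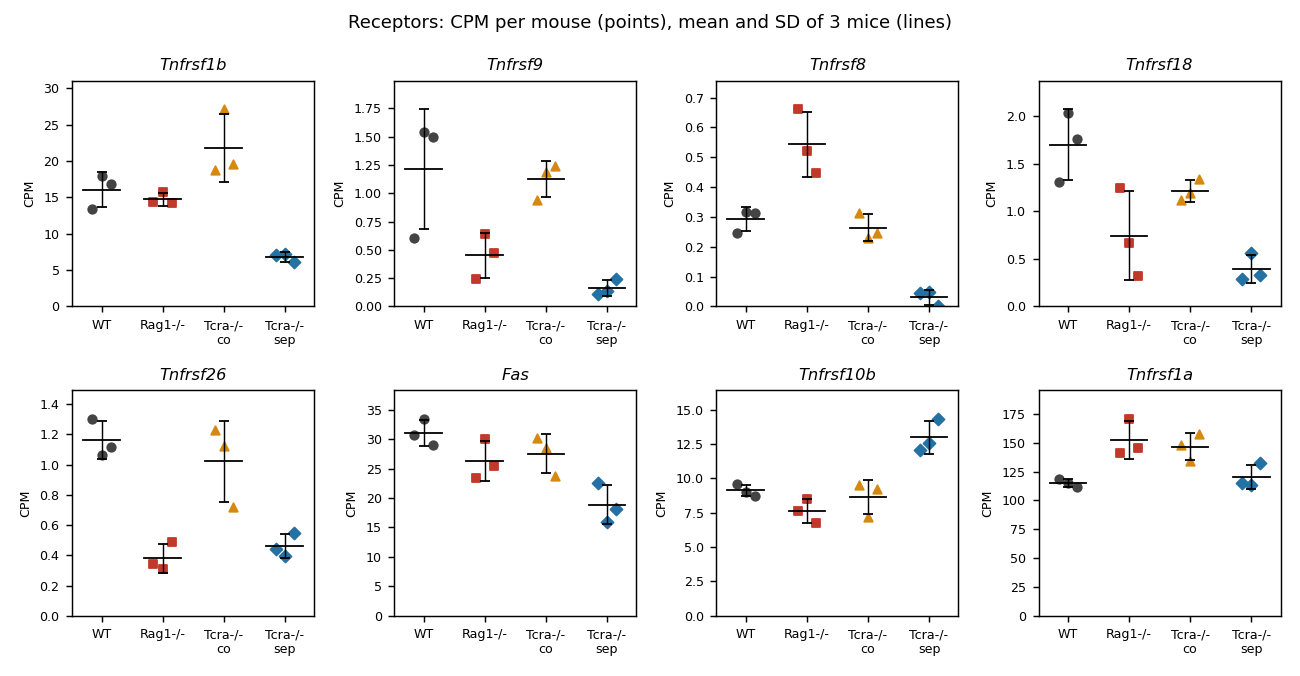
CPM of 8 receptors per mouse (points), with the mean and SD of the 3 mice of each group as bars. In separately housed Tcra-/- mice Tnfrsf1b, Tnfrsf8, Tnfrsf9 and Tnfrsf18 are below the co-housed mice, and Tnfrsf10b is above them.

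Tnfrsf9, or 4-1BB, a costimulatory receptor of activated T cells, had 0.607, 1.54 and 1.498 CPM in wild type, 0.245, 0.640 and 0.470 in Rag1-/-, 0.942, 1.19 and 1.24 in co-housed and 0.110, 0.140 and 0.241 in separately housed mice. All separately housed mice were below every other mouse. It rose 6.77-fold with co-housing (log2 2.76, SE 0.46, adjusted p = 0.00012) and fell by 2.87 in separately housed against wild type mice (SE 0.46, adjusted p = 0.000292). In Rag1-/- mice, which overlapped wild type, it was at -1.42 and not called (SE 0.40, adjusted p = 0.013), though it was called with DESeq2 (0.00695), library size alone (0.00475) or without WTB6x3159 (0.00265). The difference between the 2 fold changes, -4.18, had the largest size among the receptors (SE 0.61, adjusted p = 0.000131).

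Tnfrsf8, which encodes CD30, was scarce, with 0.247, 0.317 and 0.313 CPM in wild type, 0.661, 0.521 and 0.448 in Rag1-/-, 0.314, 0.229 and 0.248 in co-housed and 0.0439, 0.0466 and 0 in separately housed mice. The Rag1-/- mice were the highest of the 12 and the separately housed mice the lowest. It rose by 3.01 with co-housing (SE 0.63, adjusted p = 0.000814) and fell by 3.17 in separately housed against wild type mice (SE 0.61, adjusted p = 0.00135). The separately housed mice had 2, 2 and 0 reads, against 31 over the co-housed and 39 over the wild type mice. The size of these 2 fold changes is therefore uncertain. In Rag1-/- mice the 0.88 of Tnfrsf8 was not called (SE 0.40, adjusted p = 0.1). So CD30 and its ligand Tnfsf8 lay on opposite sides of wild type in Rag1-/- mice, of which the fall of the ligand was called.

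Tnfrsf18, the receptor GITR of regulatory and activated T cells, had 1.30, 2.04 and 1.77 CPM in wild type, 1.25, 0.664 and 0.320 in Rag1-/-, 1.11, 1.19 and 1.34 in co-housed and 0.285, 0.559 and 0.328 in separately housed mice. Co-housed mice were all above separately housed ones, and the Rag1-/- mice were spread most. Tnfrsf18 rose by 1.64 with co-housing (SE 0.41, adjusted p = 0.00337), which was lost without TCRaSepxT2 (0.0195) or TCRaSepxT4 (0.0183), and fell by 2.12 in separately housed against wild type mice (SE 0.40, adjusted p = 0.00114). In Rag1-/- mice it was at -1.21 and not called (SE 0.37, adjusted p = 0.021), but without RAG1x3163 it was at -1.80 and called (0.0025), as it was with library size alone (0.00919). Tnfrsf4, or OX40, had 0.884 to 1.23 CPM in wild type and 0.549 to 0.983 in the 9 knockout mice, and was not called in any comparison.

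Tnfrsf26, a mouse receptor with no known ligand, had 1.30, 1.07 and 1.12 CPM in wild type, 0.343, 0.308 and 0.491 in Rag1-/-, 1.23, 1.12 and 0.718 in co-housed and 0.439, 0.396 and 0.547 in separately housed mice. Rag1-/- and separately housed mice were all below wild type and co-housed ones, the arrangement seen for Tnfsf8 and Tnfsf11. It was the single receptor called lower in Rag1-/- mice (log2 -1.60, SE 0.31, adjusted p = 0.000898), and it rose by 1.14 with co-housing (SE 0.31, adjusted p = 0.0055). The housing call was lost without TCRaCox3155, TCRaCox3156, TCRaSepxT2 or TCRaSepxT3 (0.019 to 0.0255), with library size alone (0.0107) and with only the 6 libraries compared (0.0149). In separately housed mice it fell by 1.33 against wild type (SE 0.30, adjusted p = 0.0045), which was lost without any 1 of the 3 separately housed mice, WTB6x3159 or WTB6x3167 (0.0102 to 0.0211). Tnfrsf23, a neighbour on chromosome 7 and a decoy that binds TRAIL without a death domain, had 1.999, 1.69 and 2.01 CPM in co-housed and 0.987, 0.862 and 1.20 in separately housed mice. It rose by 0.89 with co-housing (SE 0.24, adjusted p = 0.00589), which was lost without TCRaCox3155, TCRaCox3157, TCRaSepxT2 or TCRaSepxT3 (0.0166 to 0.0277), with library size alone (0.0125) and with only the 6 libraries compared (0.0102). The third of these neighbours, the decoy Tnfrsf22, stayed at or under 0.373 CPM and was not called. Because these 3 genes are closely related copies and the treatment of reads that map to several places is not given, the split of reads among them is uncertain.

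The receptors that start cell death did not share 1 direction. Fas had 30.7, 33.5 and 29.0 CPM in wild type, 23.4, 30.0 and 25.5 in Rag1-/-, 30.2, 28.5 and 23.8 in co-housed and 22.5, 15.9 and 18.2 in separately housed mice. It rose by 0.54 with co-housing (SE 0.13, adjusted p = 0.00233), which was lost without TCRaCox3155, TCRaSepxT3 or TCRaSepxT4 (0.013 to 0.0142). It fell by 0.72 in separately housed mice against wild type (SE 0.13, adjusted p = 0.000821). Tnfrsf10b, the death receptor for TRAIL, went the other way, with 9.54, 7.22 and 9.21 CPM in co-housed, 12.04, 12.6 and 14.3 in separately housed, 9.58, 9.04 and 8.74 in wild type and 7.64, 8.48 and 6.79 in Rag1-/- mice. It fell by 0.59 with co-housing (SE 0.13, adjusted p = 0.00124, and 0.011 without TCRaCox3156), the single receptor called lower there. The 3 separately housed mice were above all 9 others, and against wild type it rose by 0.51 (SE 0.13, adjusted p = 0.00861), a call lost without any 1 of the 6 mice (0.0125 to 0.0493). Tnfrsf21 (DR6) had 19.3 to 26.3 CPM over all mice and was not called.

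Among the remaining receptors, Tnfrsf14 (HVEM), which binds LIGHT and the inhibitory receptor BTLA, had 17.8, 19.4 and 24.7 CPM in wild type and 11.8, 13.7 and 11.8 in separately housed mice. It fell by 0.73 there (SE 0.15, adjusted p = 0.00302), a call lost without TCRaSepxT2, TCRaSepxT4 or WTB6x3167 (0.0155 to 0.0197). Tnfrsf11a (RANK), the receptor of RANKL, had 41.9, 44.9 and 41.0 CPM in wild type and 57.2, 54.0 and 60.3 in separately housed mice. It rose by 0.43 (SE 0.10, adjusted p = 0.00673), a call lost without any 1 of the 6 mice (0.0119 to 0.0354), in mice whose ligand Tnfsf11 was lower than in wild type. Tnfsf11 was also lower in Rag1-/- mice, which overlapped wild type for Tnfrsf11a. There the 0.28 of Tnfrsf11a was not called (SE 0.10, adjusted p = 0.048), but it was without RAG1x3164 (0.00573). Its soluble decoy Tnfrsf11b (osteoprotegerin), the TWEAK receptor Tnfrsf12a and Tnfrsf19 (TROY) were not called in any comparison, with 4.24 to 6.17, 2.90 to 5.64 and 6.47 to 9.39 CPM over the 12 mice. Tnfrsf12a shares 80 exonic bases with Hcfc1r1 on the other strand.

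Counted over the family, Rag1-/- ileum had 2 members called higher than wild type and 6 called lower, of 30 tested. That is 6.67% and 20% of the members, beside 9.42% of all genes called higher and 11.5% called lower. Both counts of members are within a few genes of these shares, so they are not read as a trait of the family. Ligands made up most of these calls, with 1 of 11 higher and 5 lower, against 1 higher and 1 lower of 19 receptors. The median log2 fold change was -0.29 over the members and -0.02 over all genes. With library size alone as the scale, which moved the median of all genes to -0.19, the calls were 1 higher and 9 lower.

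With co-housing of Tcra-/- mice, 11 members were called higher and 2 lower. These are 36.7% and 6.67% of the members, beside 21.1% and 17.7% of all genes. Of the ligands 4 rose (Tnf, Tnfsf8, Tnfsf9 and Tnfsf11) and Tnfsf15 fell, and of the receptors 7 rose and Tnfrsf10b fell. The median was 0.52 over the members and -0.01 over all genes. With library size alone, 9 members were higher and 4 lower, and the median of all genes was -0.12.

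The comparisons with wild type share the wild type mice with each other, and one Tcra-/- group each with the housing comparison, so their counts are not independent. Separately housed Tcra-/- mice had 3 members higher and 12 lower than wild type. These are 10% and 40% of the members, beside 6.06% and 7.7% of all genes, with medians of -0.69 over the members and 0.00 over all genes. Co-housed Tcra-/- mice had 2 higher and 2 lower, 6.67% each, beside 9.34% and 9.19% of all genes, with medians of -0.04 and 0.00. With library size alone the counts for co-housed mice were 1 higher and 2 lower, and the median of all genes was -0.12. The calls for co-housed mice were Tnf and Tnfrsf1a as higher and Tnfsf13 and Tnfsf13b as lower, and those for Tnf and the BAFF and APRIL ligands have been given above. Over these 4 comparisons 10 members were called in none, 6 in 1, 9 in 2, 4 in 3 and Tnf in all 4, the sparse Tnfsf4 and Tnfsf18 apart.

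**Figure D4:**
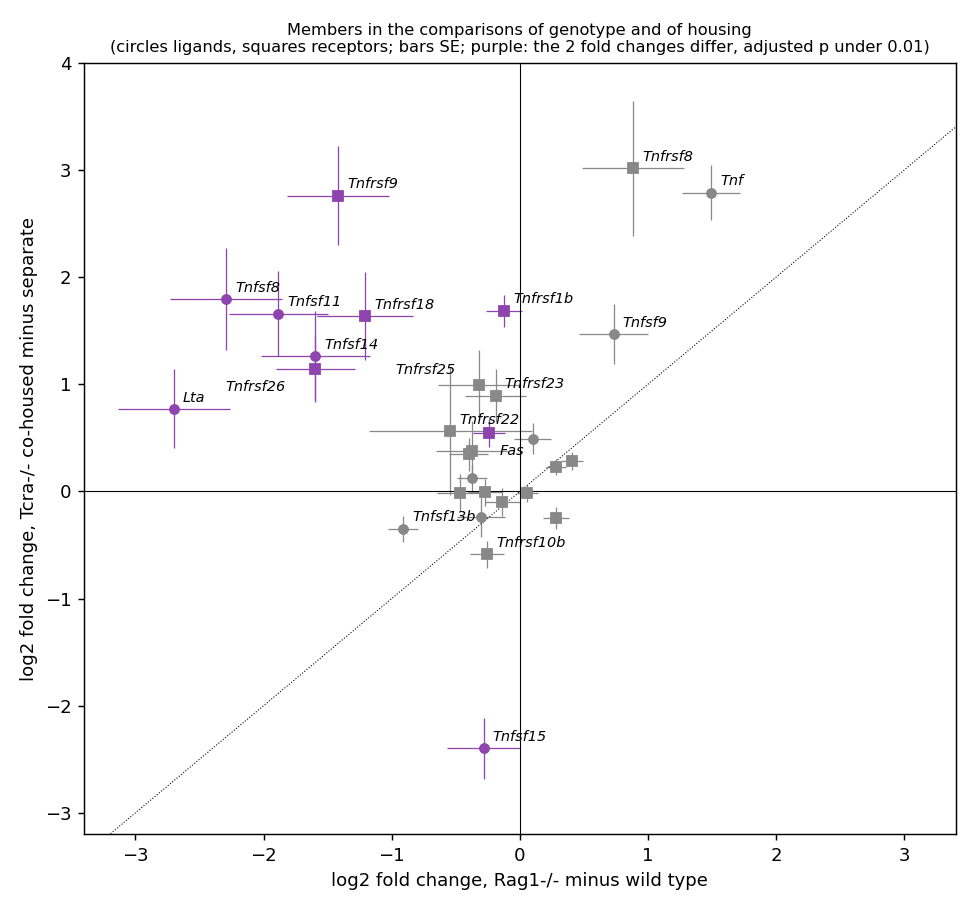
Log2 fold change of each tested member in Rag1-/- against wild type (horizontal) and in co-housed against separately housed Tcra-/- mice (vertical), with SE as bars, circles for ligands, squares for receptors and purple where the 2 fold changes differ at adjusted p under 0.01. Tnf lies far right and high, Tnfsf8, Tnfsf11, Tnfrsf26, Lta and Tnfsf14 lie upper left, and Tnfsf15 lies low.

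The 2 comparisons of the design text use different mice, and their fold changes were set against each other in 1 test. Of the 6 members called lower in Rag1-/- mice, Tnfsf8, Tnfsf11 and Tnfrsf26 were called higher with co-housing, and Lta, Tnfsf14 and Tnfsf13b were not called there. Of the 2 called higher in Rag1-/- mice, Tnf was also called higher with co-housing and Tnfrsf1a was not (log2 0.29, adjusted p = 0.011, but called at 0.0049 without TCRaCox3156 and at 0.00417 without TCRaSepxT4). Another 13 tested members were called in neither. The difference, Rag1-/- fold change minus housing fold change, was called positive for 1 member and negative for 9, which are 3.33% and 30% of the members, beside 4.61% and 7.42% of all genes. The median difference was -0.75 over the members. The 9 were the ligands Lta, Tnfsf8 (-4.09, SE 0.65, adjusted p = 0.000269), Tnfsf11 (-3.54, SE 0.55, adjusted p = 0.000224, and -4.27 without RAG1x3168) and Tnfsf14 (-2.86, SE 0.60, adjusted p = 0.0027, and 0.0105 without TCRaCox3156). Among the receptors they were Tnfrsf1b, Tnfrsf9, Tnfrsf18 (-2.84, SE 0.56, adjusted p = 0.00164, and -3.43 without RAG1x3163), Tnfrsf26 (-2.74, SE 0.44, adjusted p = 0.000288) and Fas (-0.78, SE 0.18, adjusted p = 0.00565). The call for Fas was lost without any 1 of 8 of the 12 mice (0.0127 to 0.0197).

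Superfamily genes whose symbols fall outside the rule were counted in the same way, and the counts of this and the next lists are to be read against the shares of all genes called, 9.42% higher and 11.5% lower in Rag1-/- mice and 21.1% and 17.7% with co-housing. Of 11 tested, 5 were called lower and none higher in Rag1-/- mice (median -1.31), and 6 higher and none lower with co-housing (median 1.17). Ltb, lymphotoxin beta, which pairs with lymphotoxin alpha on the membrane, averaged 9.51 ± 1.10 CPM (SD, n = 3) in wild type, 1.45 ± 0.0980 in Rag1-/-, 9.06 ± 2.34 in co-housed and 3.61 ± 0.922 in separately housed mice. It fell by 2.71 in Rag1-/- (SE 0.22, adjusted p = 1.9e-07) and rose by 1.33 with co-housing (SE 0.20, adjusted p = 5.25e-05). In Rag1-/- mice Cd27, a receptor of T and B cells, fell by 3.94 (adjusted p = 1.08e-06), Fasl, the ligand of Fas, by 2.40 (adjusted p = 0.000976) and Cd40, a receptor of B and myeloid cells, by 1.31 (adjusted p = 0.000536). With co-housing Relt rose by 1.71 (adjusted p = 0.000135) and Cd40 by 1.17 (adjusted p = 0.000621). Fasl (1.99, adjusted p = 0.00331) and Cd27 (1.45, adjusted p = 0.00382) were also called higher there. Cd40lg, the T cell ligand of CD40, had 58 reads over the wild type mice, 33 over the co-housed mice and none in the other 2 groups. Against a floor of 3 counts over a group it was at least 18.8-fold lower in Rag1-/- than in wild type and at least 12.4-fold higher with co-housing. Floors cover counting error only.

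Downstream of the receptors, 5 of 14 TRAF adaptors and regulators were called lower and 2 higher in Rag1-/- mice (median -0.07), and 6 were called higher and none lower with co-housing (median 0.29). In Rag1-/- mice Traf3ip3, a gene of lymphocytes, fell by 3.09 (adjusted p = 6.26e-08), Traf1, an adaptor induced by NF-kB, by 1.66 (adjusted p = 3.8e-05) and Traf5 by 0.92 (adjusted p = 0.00284), and Traf6 rose by 0.62 (adjusted p = 8.49e-05). With co-housing Traf1 rose by 1.47 (adjusted p = 6.77e-05), Traf3ip3 by 1.33 (adjusted p = 7.59e-05), Traip by 0.94 (adjusted p = 0.000131) and Tank by 0.54 (adjusted p = 0.000552). Traf6 was also called higher with co-housing (0.38, adjusted p = 0.0029) and Tank in Rag1-/- mice (0.42, adjusted p = 0.00728). These adaptors are shared by many receptors, and no count here ties them to 1 of the members.

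Of 20 NF-kB subunits and inhibitors, 2 were higher and 2 lower in Rag1-/- mice (median 0.10), which is near the share over all genes, and 7 were higher and 2 lower with co-housing (median 0.18). Tnip2, an inhibitor of NF-kB, rose in both, by 0.78 (adjusted p = 0.000104) and 0.85 (adjusted p = 2.49e-05). Relb, the subunit of the alternative pathway used by the lymphotoxin beta receptor, fell in both, by 0.51 (adjusted p = 0.000684) and 0.63 (adjusted p = 4.48e-05). Map3k14, the kinase of that pathway, also fell in both, by 0.52 (adjusted p = 0.00343) and 0.45 (adjusted p = 0.00531). Tnip3 rose by 2.35 in Rag1-/- mice (adjusted p = 0.000931), and with co-housing Nfkbiz rose by 1.43 (adjusted p = 2.41e-05) and Bcl3 by 1.05 (adjusted p = 8.67e-05).

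In death receptor signalling, 3 of 17 genes were called higher and 1 lower in Rag1-/- mice (median 0.02), and 7 higher and 1 lower with co-housing (median 0.28). Ripk3, the kinase of necroptosis, averaged 39.6 ± 4.72 CPM (SD, n = 3) in wild type, 104 ± 4.01 in Rag1-/-, 96.8 ± 3.95 in co-housed and 23.9 ± 2.38 in separately housed mice, which is the order of groups seen for Tnf. It rose by 1.39 in Rag1-/- (SE 0.09, adjusted p = 1.53e-08) and by 2.01 with co-housing (SE 0.09, adjusted p = 2.97e-10). Mlkl, which Ripk3 activates to open the membrane, rose by 0.72 (adjusted p = 0.00334) and 2.55 (adjusted p = 3.49e-08). Casp8, the protease that holds necroptosis in check, also rose in both comparisons, by 0.47 (adjusted p = 0.000526) and 0.66 (adjusted p = 9.62e-06). Bid fell in both, by 0.74 (adjusted p = 5.8e-05) and 0.51 (adjusted p = 0.000772).

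Of 13 genes of TNF shedding, decay or induction, 1 was higher and 4 lower in Rag1-/- mice (median -0.01), and 4 were higher and 2 lower with co-housing (median -0.07). Adam10, a sheddase, rose by 0.66 (adjusted p = 4.04e-07) and 0.61 (adjusted p = 4.42e-07). Frmd8, which stabilises the complex that sheds TNF, fell by 0.75 (adjusted p = 7.45e-06) and 0.89 (adjusted p = 6.03e-07), and Rhbdf1, a part of that complex, fell by 0.54 (adjusted p = 0.00232) and 1.00 (adjusted p = 4.45e-06). Adam17, on the same list, averaged 51.1 CPM in wild type, 51.8 in Rag1-/-, 54.8 in co-housed and 44.1 in separately housed mice. Rhbdf2 averaged 21.7, 26.3, 26.9 and 23.3 CPM in the same order. Shedding itself was not tested. Tnfaip8 fell by 0.50 in Rag1-/- mice (adjusted p = 0.00163), and Tnfaip2 rose by 1.21 with co-housing (adjusted p = 2.35e-06).

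Markers of several cell types moved with the members in these comparisons. In bulk tissue, fewer cells of a type and less RNA per cell cannot be told apart. T cell markers summed to 89.4 to 135 CPM in wild type, 14.0 to 14.7 in Rag1-/-, 36.0 to 78.1 in co-housed and 16.5 to 17.5 in separately housed mice. All 14 of them were called lower in Rag1-/- mice, and 11 were called higher with co-housing. B cell markers summed to 176 to 217 CPM in wild type, 124 to 180 in co-housed and 55.6 to 99.2 in separately housed mice. All 10 were lower in Rag1-/- mice, and 6 were higher with co-housing. The low groups of Tnfsf8, Tnfsf11 and Tnfrsf26 were thus also the lowest groups of the T cell list. Co-housed mice were below wild type in that list too. The part of cell numbers in these results was not tested.

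**Figure D5:**
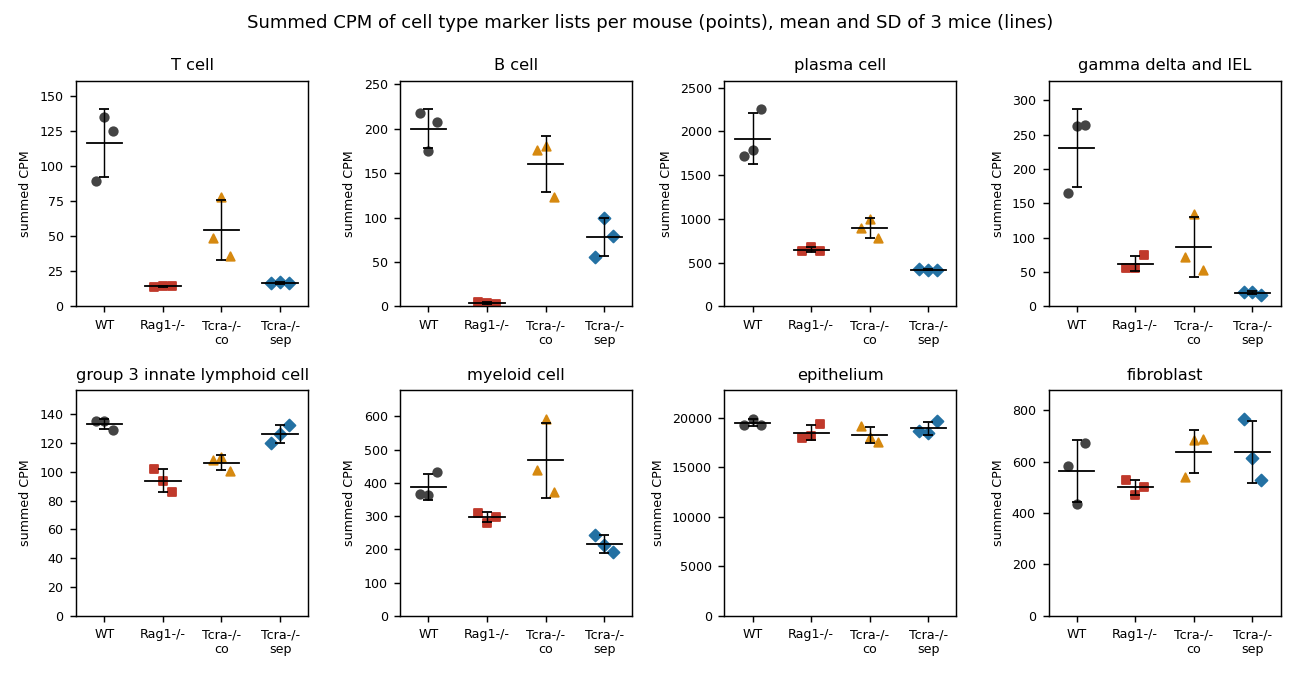
Summed CPM of the markers of 8 cell types per mouse (points; IEL, intraepithelial lymphocytes), with the mean and SD of the 3 mice of each group as bars. T cell and intraepithelial lymphocyte sums are below wild type in all 3 knockout groups. B cell sums are below wild type in Rag1-/- and separately housed Tcra-/- mice and overlap it in co-housed mice. Epithelial sums stay between 17554 and 19894 CPM. The plasma cell sum in Rag1-/- mice is mostly Xbp1 and Sdc1, and the gamma delta and IEL list holds no gamma delta receptor gene.

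Myeloid markers summed to 364 to 434 CPM in wild type, 281 to 310 in Rag1-/-, 374 to 594 in co-housed and 191 to 245 in separately housed mice. With co-housing all 14 tested were called higher, and S100a8 had no read in separately housed mice, while in Rag1-/- mice 1 was higher and 1 lower. Group means were 17.3 CPM in Rag1-/- and 10.5 in wild type mice for Cd14, 72.2 and 116 for Lyz2 and 9.56 and 23.4 for Cybb. In all, 12 of the 14 were not called in Rag1-/- mice, so the list did not move as 1. The part of myeloid cells in the Tnf values was not tested. Markers listed for gamma delta and intraepithelial lymphocytes summed to 165 to 264 CPM in wild type, 55.4 to 74.4 in Rag1-/-, 52.8 to 135 in co-housed and 17.3 to 21.3 in separately housed mice. Of these, 6 of 9 were lower in Rag1-/- mice and 7 were higher with co-housing. None of the 9 is a gamma delta receptor gene, so the list does not single out gamma delta T cells. Most of the wild type sum is Gzma and Gzmb, which averaged 118 and 43.6 CPM there. TCRaCox3156 had the highest sums of its group for T, B, intraepithelial and myeloid markers. Among the members it was the highest co-housed mouse for 8 of 30, namely Tnf, Lta, Tnfsf10, Tnfsf11, Tnfsf14, Tnfrsf1b, Tnfrsf4 and Tnfrsf14. TCRaCox3155 was the highest for 9 and TCRaCox3157 for 13. The part of cell content in these ranks was not tested.

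Of 11 genes of group 3 innate lymphoid cells, 2 were higher and 3 lower in Rag1-/- mice, and 4 higher and 2 lower with co-housing, with Il22 and Il17a at no read in separately housed mice. Their sums were 129 to 136 CPM in wild type, 85.9 to 102 in Rag1-/-, 100 to 110 in co-housed and 120 to 133 in separately housed mice. Plasma cell markers had 2 higher and 4 lower of 7 in Rag1-/- mice and 5 higher and 1 lower with co-housing. Their sum in Rag1-/- mice is mostly Xbp1 and Sdc1. Xbp1, Sdc1 and Prdm1 averaged 464, 152 and 30.2 CPM in Rag1-/- against 280, 170 and 22.9 in wild type mice. Igj, Pou2af1, Derl3 and Tnfrsf17 averaged 0.19, 0.68, 0.77 and 0.041 CPM in Rag1-/- against 1405, 29.5, 10.1 and 1.89 in wild type mice. Genes of lymphoid follicles and M cells had 1 higher and 5 lower of 9, and 5 higher and 1 lower, and summed to 84.4 to 103 CPM in separately housed and 147 to 199 in all other mice. Most of that sum is Marcksl1 and Ccl9, which averaged 97.0 and 31.5 CPM in Rag1-/- against 61.9 and 21.7 in wild type mice. Cxcl13, the chemokine that draws B cells into follicles, averaged 19.1 CPM in wild type, 5.21 in Rag1-/-, 20.1 in co-housed and 7.23 in separately housed mice, and Madcam1 4.29, 1.19, 3.56 and 1.35 in the same order. Spib and Gp2, genes of M cells, averaged 19.6 and 4.38 CPM in wild type, 4.19 and 0.602 in Rag1-/-, 15.4 and 1.35 in co-housed and 12.2 and 3.17 in separately housed mice. All 4 were called lower in Rag1-/- than in wild type mice, and the part of follicle tissue in the low Tnfsf11 and lymphotoxin values was not tested.

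Epithelial markers had 2 of 10 lower in Rag1-/- mice and 3 lower with co-housing, none higher. Of 5 terminal ileum markers none was called in Rag1-/- mice, and 1 was higher and 1 lower with co-housing. Of 9 fibroblast markers 1 was lower in Rag1-/- mice and none was called with co-housing, none of 8 endothelial markers was called in either, and of 6 smooth muscle markers 1 was lower with co-housing. Smooth muscle markers summed to 3003 to 3255 CPM in separately housed mice, 1920 to 3198 in co-housed, 2034 to 2263 in wild type and 1916 to 2419 in Rag1-/- mice.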

How the data were processed

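RNA of the terminal ileum of 12 mice (4 groups of 3, 1 library per mouse, stranded Illumina mRNA libraries per the labels' protocols) was analysed from the deposited counts. Per the submitters' processing notes, the authors used bcl2fastq, TopHat2 2.0.11, Bowtie2 2.2.2.0, build mm9, featureCounts of Subread 1.4.5-p1 and DESeq2 1.12.3. The values are whole reads per gene (raw, per the file headers), and the gene length in bases of merged exons, an other kind of value, is the authors' too. Not given in the sources used here are the annotation, the strand setting and how multi-mapped reads were treated.

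In R 4.3.3, edgeR 4.0.16 (filterByExpr, which kept 15866 of 23284 genes, TMM factors of 0.926 to 1.07, robust quasi-likelihood fit with 1 term per group over all 12 libraries, 8 residual degrees of freedom) tested 4 contrasts between groups and the difference of 2 of them, two-sided. Genes were called at a Benjamini-Hochberg adjusted p under 0.01, as the design text sets 1% for false discoveries. SE is the size of the log2 fold change divided by the square root of F. For a gene without reads in a group, the fold is a bound against a floor of 3 counts over the group. No replicates agreed within sampling noise, and no labels pair mice. The calls were tested on simulated data.

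Members and gene lists were chosen with earlier results of these data known, so they are no independent support. Per-mouse values are given for the members called with the smallest adjusted p in each comparison, the most abundant ligands and receptors and their partners, and from each pathway list up to 4 called genes per comparison are given as group means or fold changes. Cd40lg and Tank, named for housing, are also given for Rag1-/-. Adam17 and Rhbdf2 are added as group means. Cd27, Fasl, Traf6, Map3k14, Casp8 and Bid, named for Rag1-/-, are also given for housing. Single marker genes were chosen after their values were seen. A few genes of these lists are not reported here by name. Alternatives were DESeq2 1.42.0, its size factors in edgeR, library size alone, no filter, no robust fit, only the 6 libraries compared, and each mouse left out. Promoter sequences are from RefSeq, build GRCm38.p6.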

Additional observations from a re-analysis of the deposited data

How the results depend on the processing

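The totals of members called, both directions together, stayed within 1.5 times the reported ones under every alternative tried: 7 to 10 for Rag1-/- against wild type, 9 to 16 for housing, 10 to 15 for separately housed and 3 to 5 for co-housed Tcra-/- against wild type, and 8 to 14 for the difference. Of 50 calls of single members, 33 held in every alternative that gave a value, 6 of 8, 6 of 13, 10 of 15, 3 of 4 and 8 of 10 in the same order. By direction, library size alone moved some of the small counts by more than that, as the report gives. The calls of Tnf, Tnfsf15, Tnfrsf1b, Tnfrsf9, Tnfrsf8 and Tnfsf9 named in the report held, where for Tnfrsf8 in the housing comparison the fit to only the 6 libraries compared gave no value. No reported direction reversed. Over all alternatives 71 of 649 checks of a call lost it, and 40 checks called a member that the report does not. Counts over all genes moved by more than 1.5 times with library size alone, from 1494 higher and 1820 lower to 713 and 3218 for Rag1-/-, and from 1482 and 1458 to 795 and 2449 for co-housed Tcra-/- against wild type. With DESeq2 the positive differences went from 732 to 1105. With 1 mouse left out they were 450 to 733, and separately housed Tcra-/- mice had 493 to 760 genes higher and 792 to 976 lower than wild type, against 961 and 1221. With 3 mice per group, a call near the threshold can rest on 1 mouse. No paired analysis was possible because the labels give the mice no shared replicate numbers.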
